A study of Sus scrofa with 15 samples.

Results

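Genes of growth factor receptor and PI3-kinase signalling were followed across all 15 libraries of a *PKD2* overexpression experiment: *IGF1R* (ENSSSCG00000030560), *CBL* (ENSSSCG00000015115), *PIK3C2A* (ENSSSCG00000025406) and *DOK1* (ENSSSCG00000008265). They are 4 of the 16660 genes in the count table, each taken by its Ensembl identifier. All 4 passed the filter on low counts, a mean CPM (read counts scaled to library size) of 2 or more, which left 11553 genes to test. The genes were chosen by measured values of these libraries, but which values were used is not stated. The difference between Tg1 and NC, and for *DOK1* also that between Tg2 and NC, is treated here as the basis of the choice. Those differences are therefore given below as a description, without a test, and support nothing. All 15 libraries were in view when the genes were chosen, so no comparison below is known to be independent of the choice.

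LLC-PK1 cells, an epithelial line from the pig renal proximal tubule, were transiently transfected with 3 µg of 1 of 5 plasmids, and RNA was taken 48 h later from 3 wells per plasmid. NC was the empty pCAG-floxP-neo-pH11 plasmid. WT carried the human *PKD2* coding sequence, which encodes the cation channel polycystin-2, behind the CAG promoter of the same backbone and fused to a FLAG tag. Tg1 carried the same construct with c.A1532T (p.D511V), Tg2 with c.T1967G (p.L656W) and Tg3 with c.C2224T (p.R742X), a premature stop that removes the C-terminus together with the tag. The human protein was thus made in pig cells that keep their own *PKD2*, and the share of cells that took up plasmid is not given in the sources used here. Nothing states that the wells came from separate cultures, so every p-value measures the spread between wells only.

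The IGF1 receptor is a tyrosine kinase at the cell surface that, once bound by IGF1 or IGF2, recruits docking proteins and starts the PI3-kinase/AKT and RAS/ERK cascades. CBL is a ubiquitin ligase that tags active receptor kinases for endocytosis and degradation, PIK3C2A is a class II PI3-kinase that makes phosphoinositides during clathrin-mediated endocytosis and at the primary cilium, and DOK1 is a docking protein that recruits RasGAP and damps RAS/ERK signalling. Growth factor signalling through these cascades drives the proliferation of tubule epithelium, including the epithelium that lines cysts in polycystic kidney disease.

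Library totals ranged from 20216200 to 26132196 counts. Of 20 proximal tubule and epithelial markers, 19 were in the table and all 19 passed the filter, with keratin gene *KRT8* at a mean of 2300 CPM. Their summed level ranged from 5900 to 6200 CPM over the 15 libraries. Of the 12 markers of other cell types in the table, 4 passed the filter. They were the fibroblast *COL1A2*, at a mean of 922 CPM, the collecting duct *SCNN1G* at 9.42, and the leukocyte *CD14* at 8.14 and *CD68* at 2.34. The endothelial *PECAM1* was at 1.07 CPM and *CDH5* at 0.0146, and the leukocyte *PTPRC* at 0.0167. The summed level of the 12 markers was mostly *COL1A2*. It ranged from 902 to 1010 CPM in Tg1, against 948 to 983 in NC. In WT it was 950 to 1040, in Tg2 881 to 902 and in Tg3 895 to 921. WT replicate 2 stood apart from the other libraries. On the first principal component of deviations from the group means, which held 46.2% of their variance, it lay at 18.95 and the other 14 libraries between -13.55 and 9.986. In it, *CBL*, *IGF1R* and *PIK3C2A* were at their lowest of the 3 WT wells and *DOK1* at its highest, so comparisons with WT are also given without it.

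*IGF1R*, the receptor of the set, was lowest with Tg1 and highest with NC. Its level, in CPM normalized by the trimmed mean of M-values (TMM), was 238.5, 211.5 and 244.5 in NC, 231.7, 203.8 and 235.6 in WT, and 177.9, 183.6 and 205.8 in Tg1. In Tg2 it was 191.7, 186.8 and 225.1, and in Tg3 216.3, 207.2 and 217.9. Every Tg1 well lay below every NC well, but Tg1 overlapped with WT and Tg2. The means were 189 ± 14.7 in Tg1 (SD, n = 3), 201 ± 20.9 in Tg2, 214 ± 5.82 in Tg3, 224 ± 17.3 in WT and 231.5 ± 17.6 in NC, and each neighbouring pair in this order overlapped. In bulk RNA, fewer cells that express a gene cannot be told apart from less of its RNA per cell, here and for every gene below.

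*CBL*, the ligase that takes such receptors off the surface, was lower in the Tg1 wells than in any other. It stood at 47.1, 42.2 and 47.2 CPM in NC, at 46.8, 40.0 and 45.6 in WT, and at 32.5, 32.6 and 36.8 in Tg1. The Tg2 wells had 38.8, 38.2 and 43.5 CPM, and the Tg3 wells 48.1, 43.4 and 43.2. The 3 Tg1 wells lay below all 12 other libraries, whose lowest value was 38.2. Such a pattern was shared by 2.10% of the tested genes, and nothing is read from it for *CBL*, since Tg1 and NC values are taken to have chosen the gene. The group means rose from 34.0 ± 2.48 in Tg1 (SD, n = 3) over 40.2 ± 2.91 in Tg2, 44.1 ± 3.63 in WT and 44.9 ± 2.79 in Tg3 to 45.5 ± 2.84 in NC. WT, Tg3 and NC overlapped, and so did Tg2 and WT.

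*PIK3C2A*, the endocytic lipid kinase, was likewise lowest with Tg1. Its level was 66.0, 65.5 and 62.8 CPM in NC and 68.9, 59.6 and 69.1 in WT. It was 49.0, 51.9 and 53.4 CPM in Tg1, 59.2, 63.4 and 61.8 in Tg2, and 64.0, 65.8 and 63.8 in Tg3. The highest Tg1 well, at 53.4 CPM, was below the lowest of the other 12 libraries, at 59.2. All 3 Tg1 wells lay lowest in this way for 2.10% of the tested genes. Again nothing is read from it, since Tg1 and NC values are taken to have chosen *PIK3C2A*. Means were 51.4 ± 2.28 in Tg1 (SD, n = 3), 61.5 ± 2.11 in Tg2, 64.6 ± 1.11 in Tg3, 64.8 ± 1.75 in NC and 65.9 ± 5.41 in WT. Tg2 and Tg3 did not overlap, as for 11.5% of all genes, while Tg3, NC and WT overlapped.

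*DOK1*, the docking protein, went the other way, with its lowest wells in NC and its highest in Tg2. It was at 9.24, 10.3 and 7.97 CPM in NC, at 10.3, 11.9 and 10.1 in WT, and at 11.5, 12.3 and 12.1 in Tg1. In Tg2 it reached 12.8, 12.4 and 12.4 CPM, and in Tg3 11.5, 11.4 and 9.45. All 3 Tg2 wells lay above the other 12 libraries, whose highest value was 12.3, as they did for 1.11% of the tested genes. Nothing is read from this, since Tg2 and NC values are also taken to have chosen *DOK1*. Means were 9.18 ± 1.18 in NC (SD, n = 3), 10.7 ± 0.975 in WT, 10.8 ± 1.15 in Tg3, 11.9 ± 0.415 in Tg1 and 12.5 ± 0.198 in Tg2. *DOK1* had the fewest reads of the 4 genes, 207 to 312 per library, so that counting alone gives a coefficient of variation of 5.89 to 6.6%. The gap between 12.3 CPM and the lowest Tg2 well, at 12.4, is smaller than that. The Tg2 wells varied by 1.58%, less than the 6.02% that counting alone gives in this group.

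**Figure D1:**
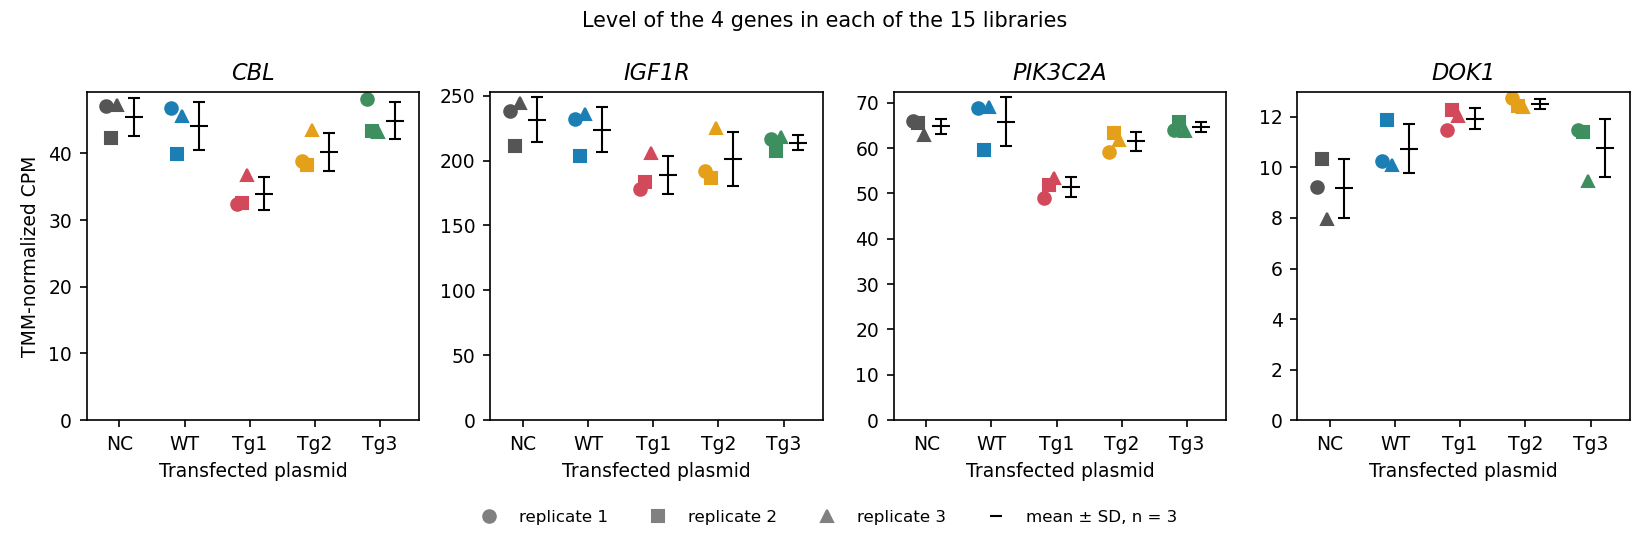
Level of the 4 genes (y axis, TMM-normalized CPM, from 0) in each well, by transfected plasmid (x axis). Marker shape gives the replicate number, and the bar beside each group its mean ± SD (n = 3). *CBL* and *PIK3C2A* are lowest in the 3 Tg1 wells (at most 36.8 and 53.4 CPM), *IGF1R* overlaps between Tg1 and Tg2, and *DOK1* is highest in Tg2 (at least 12.4 CPM).

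Between Tg1 and NC, the contrast treated as the one by which the genes were chosen, *CBL* differed by -0.42 on the log2 scale, *IGF1R* by -0.29, *PIK3C2A* by -0.33 and *DOK1* by 0.38. Against 1.19% of all tested genes, 2 of the 4, *CBL* and *PIK3C2A*, met the thresholds of the study's methods (adjusted p at most 0.05, log2 fold change at least 0.26 in size). The wells of these groups did not overlap for any of the 4, as for 26.7% of all genes. Nothing is read from either count, since the choice may have fixed both. The *CBL* call was kept only without NC replicate 2 or Tg1 replicate 3 when 1 well was left out, and the *PIK3C2A* call was lost without NC replicate 1 or Tg1 replicate 2. Between Tg2 and NC, *DOK1* differed by 0.45 on the log2 scale.

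Tg1 was also compared with Tg3 and WT, although both comparisons reuse the Tg1 libraries of the choosing contrast and are not independent of it. Against Tg1, Tg3 had higher *CBL* and *PIK3C2A*: 2 of the 4 genes were called, with 0.615% of all genes called. *CBL* was 1.32-fold higher (log2 fold change 0.40, SE 0.0778, adjusted p = 0.0303 by edgeR's quasi-likelihood test with Benjamini-Hochberg adjustment). *PIK3C2A* was 1.25-fold higher (log2 0.33, SE 0.0555, adjusted p = 0.0176, edgeR). Both calls depended on single wells. Without Tg1 replicate 3 both were called (adjusted p = 0.0214 and 0.0198). Without Tg1 replicate 1 or 2 or any Tg3 well neither was. EdgeR adjusted p then ran from 0.0829 to 0.164 for *CBL* and from 0.0675 to 0.109 for *PIK3C2A*. Calls over all genes rose from 71 to 115 without Tg1 replicate 3 and fell to between 3 and 14 in the other fits. The log2 fold changes over these 6 fits were 0.35 to 0.47 for *CBL* and 0.29 to 0.36 for *PIK3C2A*. With only Tg1 and Tg3 in the fit, *CBL* was not called (adjusted p = 0.051) and *PIK3C2A* was (adjusted p = 0.0328).

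In the same comparison *IGF1R* differed by 0.18 (95% confidence interval 0.00424 to 0.351) and *DOK1* by -0.15 (-0.368 to 0.0701), with edgeR adjusted p-values of 0.302 and 0.521. The *IGF1R* wells of Tg1 and Tg3 did not overlap, as was true of 3 of the 4 genes and 24.9% of all genes.

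Against WT, *PIK3C2A* was lower with Tg1, by 0.36 on the log2 scale, or to 0.781 of the WT level (SE 0.0554, adjusted p = 0.0258 by edgeR). It was the 1 gene of the 4 among 8 called in the whole table, which is 0.0692% of those tested. *CBL* was at -0.38 (SE 0.0779, adjusted p = 0.0776, edgeR), with no overlap between wells, as for 16.9% of all genes, and DESeq2 called it (adjusted p = 0.0039). *IGF1R* stood at -0.24 (SE 0.0808, adjusted p = 0.195) and *DOK1* at 0.15 (SE 0.102, adjusted p = 0.475). WT replicate 2 bears on these values. Without it *PIK3C2A*, *CBL* and *IGF1R* were all called, at -0.42 (adjusted p = 0.00191), -0.44 (0.00965) and -0.31 (0.0314) by edgeR. Calls over all genes then rose from 8 to 852 of 11553. Without WT replicate 1 or 3 or any Tg1 well none of these genes was called, with adjusted p for *PIK3C2A* from 0.0594 to 0.181. In each of those fits 0 of all tested genes were called. *PIK3C2A* was not called either with only Tg1 and WT in the fit (adjusted p = 0.428) or without the CPM filter (adjusted p = 0.0502).

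The comparison between the missense plasmids again reuses the Tg1 libraries of the choosing contrast, and for *DOK1* the Tg2 libraries. It is not independent of the choice. Tg2 wells had more *PIK3C2A* and *CBL* than Tg1 wells, but neither was called. *PIK3C2A* was 0.26 higher (95% interval 0.138 to 0.376, adjusted p = 0.0509, edgeR) and *CBL* 0.24 higher (0.0759 to 0.411, adjusted p = 0.134). For *PIK3C2A* the adjusted p was 0.0076 with DESeq2 and 0.0438 with the replicate block in edgeR, but the log2 fold changes of 0.2591 and 0.2568 fell short of 0.26. *IGF1R* and *DOK1* lay at 0.09 (-0.0835 to 0.263) and 0.07 (-0.146 to 0.286). Called were 0 of the 4 by edgeR and 0 by DESeq2, against 0.138% of all genes called by edgeR, and 2 of the 4 had an unadjusted p under 0.05, against 19.8% of all genes. Wells of 3 of the 4 genes did not overlap, against 23.2% of all genes.

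The comparisons of Tg2 with WT, Tg3 with WT and Tg3 with Tg2 share no library with the choosing contrast, Tg1 against NC. Their wells too were in view when the genes were chosen. For *DOK1*, Tg2 against NC was also treated as the basis of the choice. Its comparisons of Tg2 with WT and Tg3 with Tg2 reuse those Tg2 libraries and are not independent of the choice. Between Tg2 and WT, where 5.92% of all genes were called, 0 of the 4 were called by edgeR or DESeq2, and 1, *DOK1*, had an unadjusted p under 0.05, as had 34.3% of all genes. *DOK1* was 0.22 higher (95% interval 0.00204 to 0.441, adjusted p = 0.142, edgeR), its lowest Tg2 well, at 12.4 CPM, being above the highest WT well, at 11.9, a lack of overlap shared by 24.4% of all genes. *CBL* was at -0.13 (-0.299 to 0.0329), *IGF1R* at -0.15 (-0.326 to 0.0203) and *PIK3C2A* at -0.10 (-0.218 to 0.0188). These last 3 intervals include 0, and those of *CBL* and *IGF1R* also reach past a fall of 0.26. Without WT replicate 2, *PIK3C2A* was at -0.17 with an adjusted p of 0.0166 (edgeR), short of the fold threshold. *IGF1R* was then at -0.22 (adjusted p = 0.0566), *CBL* at -0.20 (0.0632) and *DOK1* at 0.30 (0.0527). *IGF1R* had an adjusted p of 0.042 at -0.24 without Tg2 replicate 3.

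In the fit of all libraries, Tg3 and WT had means within 0.07 of each other on the log2 scale for all 4 genes. *CBL* differed by 0.03 (95% interval -0.139 to 0.192), *IGF1R* by -0.07 (-0.238 to 0.108), *PIK3C2A* by -0.03 (-0.147 to 0.0891) and *DOK1* by 0.00 (-0.22 to 0.225). The edgeR adjusted p-values ran from 0.663 to 0.99. None of the 4 was called by edgeR or DESeq2, and 0 had an unadjusted p under 0.05 (19.2% of all genes). Of all 11553 genes, edgeR called 0% and DESeq2 116. Without WT replicate 2, Tg3 differed from WT by -0.04 for *CBL*, -0.13 for *IGF1R*, -0.10 for *PIK3C2A* and 0.08 for *DOK1*. In that fit again 0 of the 4 were called between Tg2 and WT, Tg3 and WT or WT and NC. Over all genes that fit called 2421, 1321 and 25 in these comparisons.

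Tg3 and Tg2 also differed in none of the 4 beyond the spread between wells by edgeR, in a comparison in which 0% of all genes were called. *CBL* was 0.16 higher with Tg3 (95% interval -0.00633 to 0.326) and *DOK1* lower by 0.22 (-0.438 to 0.00095), both with an adjusted p of 0.822. *IGF1R* and *PIK3C2A* were at 0.09 (-0.0856 to 0.261) and 0.07 (-0.0479 to 0.189). DESeq2 called 0 of the 4 as well, and 0 had an unadjusted p under 0.05, against 5.83% of all genes. The *DOK1* and *PIK3C2A* wells did not overlap, as in 11.5% of all genes.

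**Figure D2:**
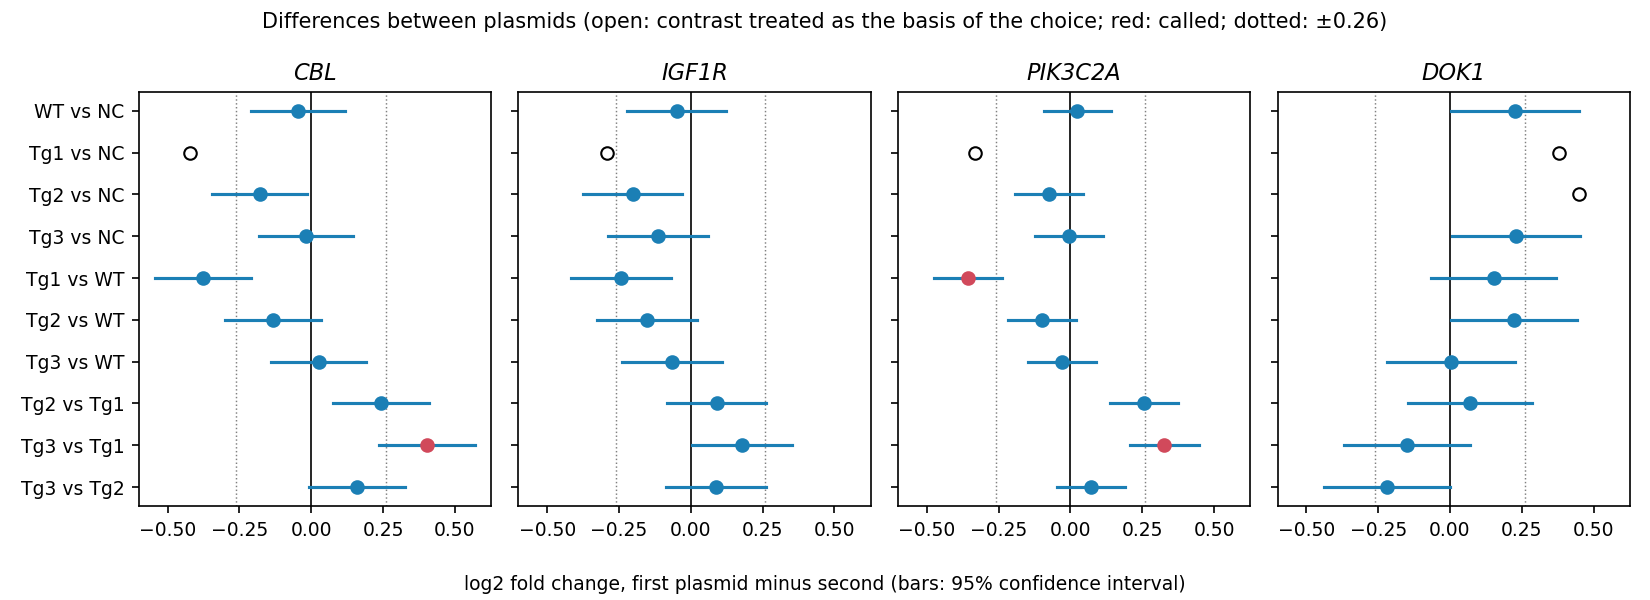
log2 fold change of each gene (x axis, first plasmid minus second) in the 10 comparisons between plasmids (y axis). Filled points carry 95% confidence intervals, red points met both thresholds, dotted lines mark ±0.26, and open points are the contrasts treated as the basis of the choice. *PIK3C2A* was called in Tg1 vs WT (-0.36) and Tg3 vs Tg1 (0.33), and *CBL* in Tg3 vs Tg1 (0.40).

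The remaining comparisons with the empty plasmid share the NC libraries of the choosing contrast. With WT, edgeR called 0 of the 4 and 0% of all genes. DESeq2 called 11 of the 11553 genes and 0 of the 4, but gave no adjusted p for *CBL*, *PIK3C2A* and *DOK1*. *CBL* was at -0.05, *IGF1R* at -0.05 and *PIK3C2A* at 0.02, while *DOK1*, at 0.23 (95% interval 0.00415 to 0.45, adjusted p = 1, edgeR), was the 1 gene of the 4 with an unadjusted p under 0.05, against 4.54% of all genes. Without WT replicate 2, *DOK1* was at 0.15 between WT and NC, and leaving out any 1 library gave 0.13 to 0.32. With Tg3, *DOK1* was at almost the same value in the fit of all libraries, 0.23 (0.00672 to 0.453, adjusted p = 0.268, edgeR). Leaving out 1 library there gave 0.14 to 0.33. It was again the 1 gene under an unadjusted p of 0.05, against 18.1% of all genes. *CBL* (-0.02), *IGF1R* (-0.11) and *PIK3C2A* (0.00) did not reach it. In this comparison edgeR called 0 of the 4 and 0% of all genes. DESeq2 called 52 of the 11553 genes and 0 of the 4, but gave no adjusted p for *DOK1*.

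With Tg2, 1 of the 4, *DOK1*, was called against 8.43% of all genes, and nothing is read from this count either. With 1 well left out it was kept only without NC replicate 2 or Tg2 replicate 3. *CBL* lay at -0.18 (95% interval -0.344 to -0.0137, adjusted p = 0.115, edgeR) and *IGF1R* at -0.20 (-0.375 to -0.0293, adjusted p = 0.0942), and *PIK3C2A* at -0.08 (-0.193 to 0.0424, adjusted p = 0.343). *IGF1R* was called once Tg2 replicate 3, its highest Tg2 well, was left out (adjusted p = 0.0226), and was not without any other NC or Tg2 well (0.0502 to 0.285). Without Tg2 replicate 3, calls over all genes rose from 974 to 1878.

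*CBL*, *IGF1R* and *PIK3C2A* rose and fell together over the libraries. Over the 15 libraries, *CBL* and *IGF1R* had a Pearson r of 0.896 on log2 CPM, *CBL* and *PIK3C2A* 0.886, and *IGF1R* and *PIK3C2A* 0.727. *DOK1* ran against all 3, with r of -0.594 for *CBL*, -0.734 for *IGF1R* and -0.449 for *PIK3C2A*. Libraries share their plasmid group, RNA preparation and composition, and the groups were part of the choice, so these values are a description. After the group means were removed, r was 0.907 for *CBL* and *IGF1R*, 0.504 for *CBL* and *PIK3C2A* and 0.451 for *IGF1R* and *PIK3C2A*. For *DOK1* it was -0.518 with *IGF1R*, -0.326 with *CBL* and -0.13 with *PIK3C2A*, so that the last pair hardly varied together within groups. Wells low in *CBL* for their group were, as a rule, also low in *IGF1R*.

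**Figure D3:**
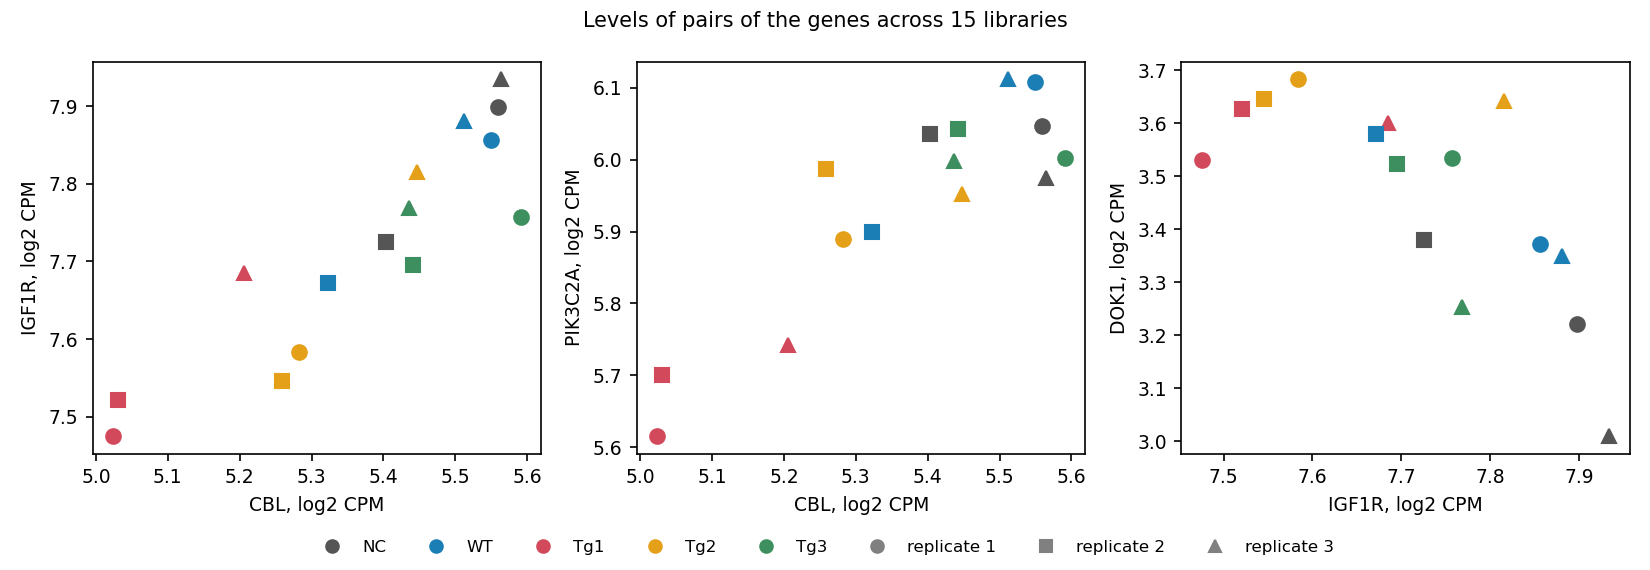
Levels of pairs of genes (log2 CPM on both axes) in the 15 libraries, coloured by plasmid, with marker shape for the replicate number. *CBL* and *IGF1R* rise together (r = 0.896), and so do *CBL* and *PIK3C2A* (r = 0.886), with the 3 Tg1 wells at the lower left, while *DOK1* is lower where *IGF1R* is higher (r = -0.734).

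The axis that set WT replicate 2 apart was followed by *DOK1*, *IGF1R* and *CBL* more than by a typical gene, and by *PIK3C2A* less. The correlation of their within-group deviations with the first component was -0.595 for *CBL*, -0.667 for *IGF1R*, -0.346 for *PIK3C2A* and 0.752 for *DOK1*, beside a median absolute value of 0.525 over all tested genes. In NC replicate 2, at 9.986 on this component, *IGF1R* was 0.13 below and *DOK1* 0.18 above its group mean on the log2 scale, and in WT replicate 2 the same deviations were -0.13 and 0.15. Replicate 2 of every group was positive on this component, from 3.325 in Tg2 to 18.95 in WT. So were Tg1 replicate 3 and Tg2 replicate 1. What this component stands for was not tested.

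Among 10133 other tested genes with a symbol, those most like *CBL* over the 15 libraries were *PHLPP2* (r = 0.967), which encodes a phosphatase that removes an activating phosphate from AKT, *GLG1* (0.954), a Golgi glycoprotein that binds fibroblast growth factors, and *MTCL2* (0.945). Nearest to *IGF1R* were *MYO9A* (0.954), an unconventional myosin with a RhoGAP domain, *GLIS3* (0.949), a zinc-finger transcription factor of tubule and islet, and *PRKDC* (0.943), the catalytic subunit of the DNA-dependent protein kinase. *PIK3C2A* was closest to *GOLGA3* (0.949), a Golgi protein, *AFF4* (0.930), a scaffold of transcription elongation, and *PRKAR2A* (0.924), a regulatory subunit of protein kinase A. *DOK1* was closest to *PRPH* (0.936), the intermediate filament peripherin, *FLOT2* (0.916), a membrane microdomain protein, and *TUBB6* (0.913), a beta-tubulin. Of all these genes, 5% had an r above 0.679 with *CBL*, above 0.732 with *IGF1R*, above 0.639 with *PIK3C2A* and above 0.746 with *DOK1*.

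Of 16 tested relatives of the 4 genes, *PIK3R3*, *MET* and *ERRFI1* were called, each in comparisons of Tg2 alone. Neither of the other *CBL* ligases was called in any comparison. With Tg1, *CBLB* was at -0.11 (SE 0.107) and *CBLC* at 0.15 (SE 0.0692) against NC. The other class II kinase, *PIK3C2B*, was at -0.05 with Tg1 (27.5 ± 3.72 CPM, SD, n = 3, against 28.5 ± 2.71) and at 0.30 with Tg2 (adjusted p = 0.131, edgeR), where *PIK3C2A* was at -0.08. *DOK4*, of the *DOK1* family, was at -0.01 with Tg1 (SE 0.0545) and 0.04 with Tg2 (SE 0.0547) against NC. *DOK2*, at 0.943 CPM, fell below the filter. *RASA1*, the RasGAP that *DOK1* recruits, was at -0.21 with Tg1 against NC (adjusted p = 0.103, edgeR).

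Of the receptors beside *IGF1R*, *EGFR*, which *CBL* also ubiquitinates, was 0.25 lower with Tg1 than with NC on the log2 scale (119.5 ± 5.59 against 142 ± 4.63 CPM, SD, n = 3, adjusted p = 0.0407, edgeR), under the 0.26 threshold and so not called. Against WT the difference was -0.25 (adjusted p = 0.0945), and between Tg3 and Tg1 0.20 (adjusted p = 0.0991). *INSR*, the insulin receptor, was also 0.25 lower with Tg1 than with NC, but with a larger error (SE 0.14, adjusted p = 0.335, edgeR), and *IGF2R*, which clears IGF2, was at -0.10 (SE 0.0502, adjusted p = 0.282). *MET*, the hepatocyte growth factor receptor, was higher with Tg2 than with WT (0.29, SE 0.0848, adjusted p = 0.0453, edgeR). *IRS2*, a docking protein of *IGF1R* and *INSR*, was called in no comparison and *IRS1*, at 0.304 CPM, fell below the filter.

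Of the class I PI3-kinase subunits, the regulatory *PIK3R3* was lower with Tg2, at -0.35 against NC (139.9 ± 5.49 against 179 ± 10.3 CPM, SD, n = 3, adjusted p = 0.0134, edgeR) and -0.30 against WT (adjusted p = 0.0277). With Tg1 it was at -0.22 against NC (adjusted p = 0.0796). *PIK3R1*, another regulatory subunit, was at 0.20 with Tg1 (adjusted p = 0.0815, edgeR), and the catalytic *PIK3CA* at -0.04 (adjusted p = 0.772). *PIK3CB*, also catalytic, had adjusted p of 0.0486 and 0.0374 for Tg2 against NC and WT, with log2 fold changes of -0.21 and -0.2595, and was not called, since both fell short of 0.26 in size. The adaptor *GRB2* was called in no comparison. *ERRFI1*, an inhibitor of *EGFR*, was called with Tg2 against NC (0.44, SE 0.0886, adjusted p = 0.0168, edgeR) and was at 0.31 with Tg1 (adjusted p = 0.0796).

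The wider pathway was described with 7 lists. They held receptors, ligands, adaptors, and *CBL* with other negative regulators and endocytic handlers of receptor kinases. They also held PI3-kinase subunits with phosphatases of phosphoinositides or AKT, the AKT/mTOR branch and the RAS/ERK branch. Of their 187 symbols, 167 were in the table and 140 were tested, the 4 genes among them. Beside *CBL* and *PIK3C2A*, 1 of the other 136 was called between Tg1 and NC, or 0.735% against 1.19% of all genes. It was *PHLPP2*, at -0.49 (12.2 ± 0.521 against 17.1 ± 1.97 CPM, SD, n = 3, adjusted p = 0.0409, edgeR). The PI3-kinase list had a median log2 fold change of -0.06 in this comparison, with 15 of its 19 tested genes lower, *PIK3C2A* among them, beside 49.0% of all tested genes. The list of *CBL*, other negative regulators and endocytic handlers had a median of 0.08, with 15 of its 23 tested genes higher, beside 51.0% of all. The receptors had a median of -0.06, and the median over all tested genes was 0.00. Between Tg3 and Tg1, the collagen receptor kinase *DDR2* was the 1 further gene called (0.41, SE 0.0844, adjusted p = 0.0414, edgeR), and between Tg1 and WT there was none beside *PIK3C2A*. Without NC replicate 1 or Tg1 replicate 2 the lists had 0 calls between Tg1 and NC, where all genes had 19 and 16. Without Tg1 replicate 1 or 2 or any Tg3 well they had 0 between Tg3 and Tg1, where all genes had 3 to 14.

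Most pathway calls involved Tg2, where the 4 genes had few. Against NC, 19 of the 140 were called, 14 higher and 5 lower, or 13.6% beside 8.43% of all genes. Without the 4 genes, of which *DOK1* was taken as chosen on this comparison, there were 18 of 136, or 13.2%. Against WT there were 12, 7 higher and 5 lower, or 8.57% beside 5.92%. The ERK phosphatase genes *DUSP6* (0.65, adjusted p = 0.0117, edgeR) and *DUSP5* (0.52, adjusted p = 0.0219) were higher than with NC, as were *SPRY1* (0.63, adjusted p = 0.0262), an inhibitor of receptor signalling to ERK, and the *EGFR* ligand gene *HBEGF* (0.35, adjusted p = 0.027). The adaptor *BCAR1* (0.36, adjusted p = 0.0219), the IGF-binding protein *IGFBP4* (0.56, adjusted p = 0.038) and the receptors *EPHA1* (0.48, adjusted p = 0.0219) and *ROR2* (0.63, adjusted p = 0.0316) were higher too, by edgeR.

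Lower with Tg2 than with NC were the receptor *TYRO3* (-0.33, adjusted p = 0.0224), the adaptor *GRB14* (-0.50, adjusted p = 0.0293), which inhibits the insulin receptor, the phosphoinositide phosphatase *INPP4A* (-0.46, adjusted p = 0.021) and the translation repressor *EIF4EBP2* (-0.35, adjusted p = 0.0141), by edgeR. Against WT, *IGFBP5* (-0.62, adjusted p = 0.0453) was lower and *SOCS1* (0.86, adjusted p = 0.0473), a suppressor of cytokine signalling, was higher, though the wells of both overlapped. These counts depended on single wells, as did the calls over all genes. Leaving out NC replicate 1 or 3 or Tg2 replicate 2 left 0 calls against NC and leaving out Tg2 replicate 1 left 1. Without Tg2 replicate 3 there were 38. Over all genes these fits called 24, 0, 0, 48 and 1878, in that order. Against WT, leaving out WT replicate 1 or 3 or Tg2 replicate 1 or 2 left 0. There were 43 without WT replicate 2 and 34 without Tg2 replicate 3. Over all genes these fits called 1, 0, 0, 0, 2421 and 1878, in that order. With only Tg2 and WT in the fit, 0 pathway genes and 0 of all genes were called.

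**Figure D4:**
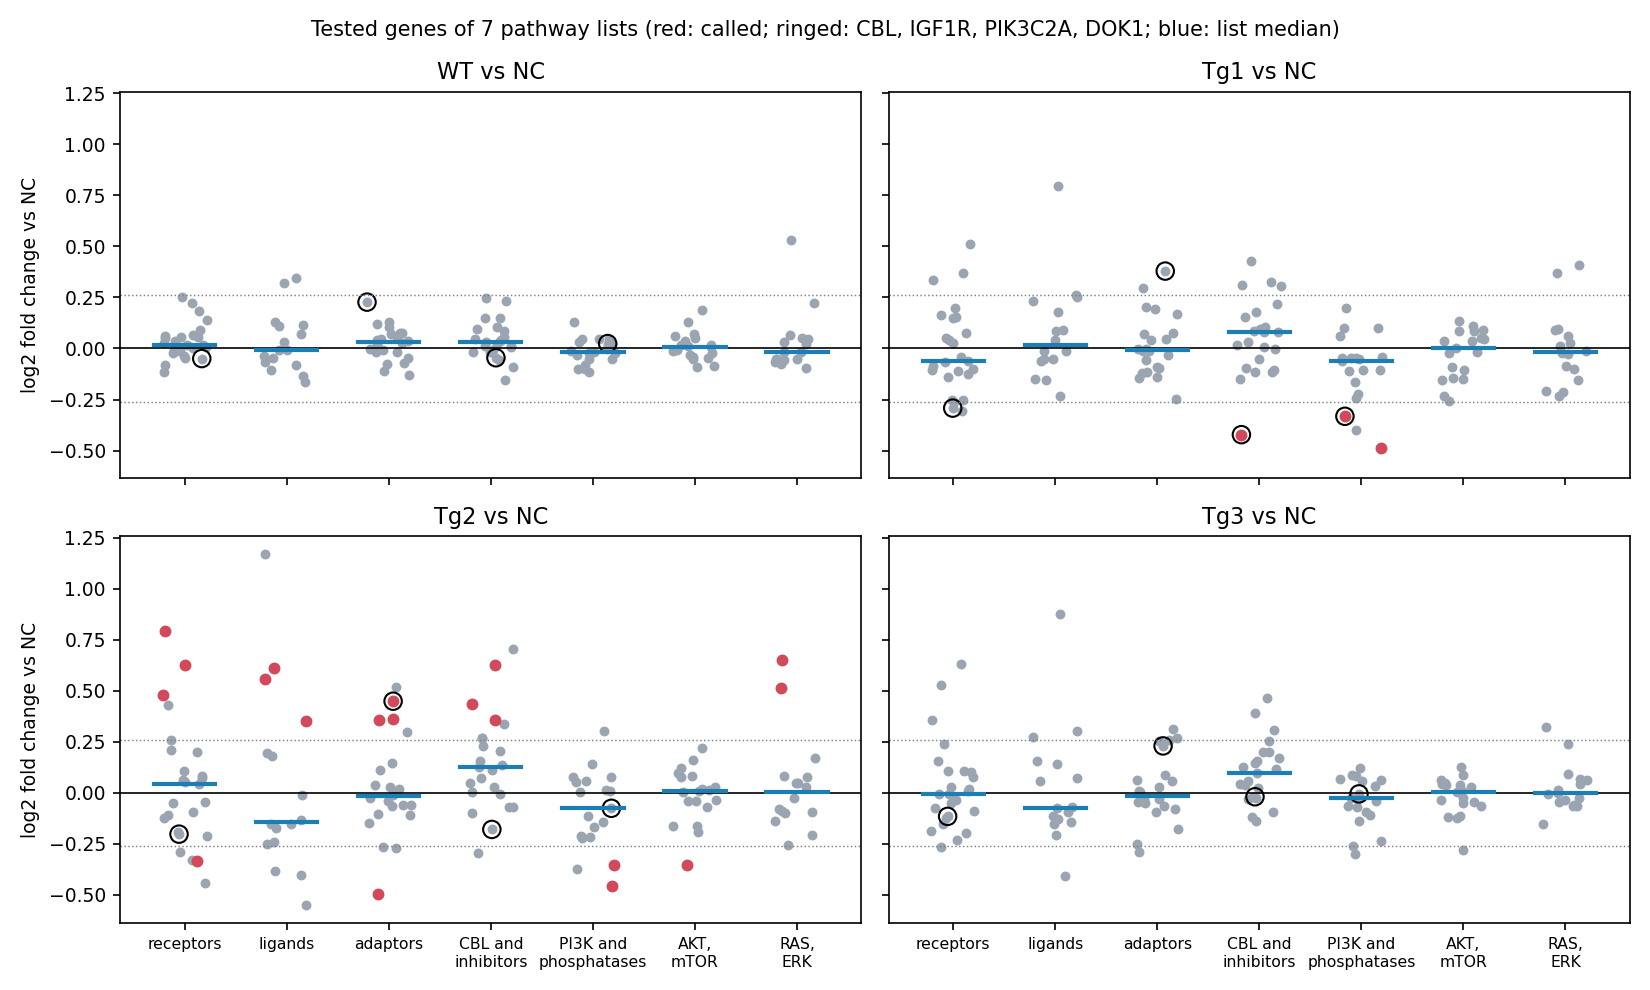
log2 fold change against NC (y axis) of the 140 tested genes of 7 pathway lists (x axis), 1 panel per plasmid. Each point is a gene, red if called, ringed if it is *CBL*, *IGF1R*, *PIK3C2A* or *DOK1*, and blue bars are list medians. With Tg1, 3 genes are called, *CBL* and *PIK3C2A* among them, with Tg2 19, and with WT and Tg3 0.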

How the data were processed

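The authors quantified reads with Salmon against Ensembl pig transcripts and deposited a table of whole-number gene counts for 15 libraries that were not normalized. How transcript estimates became gene counts is not given in the sources used here. Groups and replicate numbers came from the sample labels. Symbols matched 13373 of 16660 identifiers. The 4 genes, the pathway lists and the tests were chosen with earlier results of these data known. The 11553 genes whose mean CPM reached 2 were fitted in edgeR 4.0.16 (R 4.3.3) with TMM factors and glmQLFit on 5 group means, and 10 pairs of plasmids were tested with glmQLFTest and Benjamini-Hochberg adjustment over all 11553. Calls needed an adjusted p at most 0.05 and a log2 fold change at least 0.26 in size, and the scripts were tested on simulated data. Levels are TMM-normalized CPM, and log2 CPM used a prior count of 2. With 3 wells against 3, an exact two-sided permutation test of 1 gene cannot go below p = 0.1.

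Named were the 4 genes, a fixed set of their relatives, up to 2 called genes per pathway list, direction and comparison by smallest adjusted p, and the 3 genes most like each of the 4. *DOK3* did not match by symbol, and another relative is not reported here. The main fit did not pair wells by replicate number, in any comparison. Same-number correlations of WT and NC were 0.154 to 0.544. A replicate block, fitted over all 15 libraries as an alternative, changed no call of the 4 genes between WT and NC. Tg3 had positive same-number correlations with NC and WT as well, some of them close to 0. No pair of replicates of a group agreed within counting noise, and pairs between groups were not compared. Alternatives were DESeq2 1.42.0, its size factors, other CPM filters, only the groups compared, no fold threshold, the replicate block, and leaving out each library. Gene lengths, sequences, human *PKD2* and the *PKD* genes of the pig were not analysed here.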

Additional observations from a re-analysis of the deposited data

Results flagged for a closer look

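Tg1 and Tg3 share the empty plasmid as their control, and the difference between them was tested directly. Of the 140 tested genes of the pathway lists, the 4 genes among them, 3 were called by edgeR. This is 2.14% beside 0.615% of all genes, and the choice of *CBL* and *PIK3C2A* bears on that share. Without the 4 genes it was 1 of 136, or 0.735%, close to the share of all genes. The 3 were *DDR2*, higher with Tg3 by 0.41 on the log2 scale (adjusted p = 0.0414), *CBL* by 0.40 (adjusted p = 0.0303) and *PIK3C2A* by 0.33 (adjusted p = 0.0176). All 3 Tg3 wells of each lay above all 3 Tg1 wells, as the wells of 24.9% of all genes did not overlap. With 1 library left out, the pathway calls numbered 0 to 4, and they fell to 0 without Tg1 replicate 1 or 2 or any Tg3 well. All genes had 3 to 14 calls in the fits with 0. *CBL* and *PIK3C2A* are taken to have been chosen on Tg1 and NC values, so their part in this difference is not independent of the choice.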

How the results depend on the processing

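Of 560 refitted log2 fold changes of the 4 genes, 498 kept their direction and side of the threshold, 32 lost the call, 9 gained it and 21 turned sign, the last all within 0.0466 of 0. With DESeq2, 4 of the genes were called between Tg1 and NC in place of 2, and 2 between Tg1 and WT in place of 1. Calls over all genes rose from 138 to 244 and from 8 to 77. Nothing is read from the Tg1 and NC counts, for the reason given above. A gene without a DESeq2 adjusted p was counted as not called. Between Tg1 and WT, 0 of the 4 were called without the CPM filter and 0 with only the groups compared, which left 1 between Tg3 and Tg1. Over all genes these fits called 2, 0 and 32. Without replicate 2 of every group, 0 of the 4 were called between Tg1 and NC and 0 between Tg3 and Tg1, where all genes had 19 and 0 calls. Leaving out 1 library gave 0 to 2 called genes of the 4 for Tg1 vs NC, Tg2 vs NC and Tg3 vs Tg1, and 0 to 3 for Tg1 vs WT. Over all genes the ranges were 16 to 83, 0 to 1878, 3 to 115 and 0 to 852, in that order. Over the 10 comparisons, pathway genes were called 38 times, 68 times with DESeq2 and 65 times without replicate 2 of every group. For these changes the cause was not tested, beyond the smaller number of wells.

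Same-number correlations were positive throughout for WT and NC, for Tg3 and NC (0.032 to 0.49) and for Tg3 and WT (0.068 to 0.451). Other pairs of plasmids had negative values too, down to -0.361 for Tg2 and Tg1. For replicate 2 the correlation was positive in every pair, from 0.101 to 0.544. Whether wells with the same number were handled together is not given in the sources used here. The replicate block gave 4 called genes of the 4 for Tg1 vs NC and 2 for Tg1 vs WT, where it called 246 and 66 of all genes. It left the counts of the 4 genes as they were in the other comparisons, and gave 72 pathway calls. In Tg2 vs WT the 12 pathway calls became 26 with the block and 21 with DESeq2, and the 684 calls over all genes became 1578 and 1184. In Tg2 vs NC the 19 became 29 with the block and 29 without the fold threshold, and the 974 over all genes became 1624 and 1643.

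The fold changes that turned sign were all close to 0 in the fit of all libraries. With 1 library left out, WT vs NC ranged from -0.097 to 0.0206 for *CBL*, from -0.111 to 0.0133 for *IGF1R* and from -0.0124 to 0.0909 for *PIK3C2A*. Tg3 vs NC ranged from -0.0709 to 0.00921 for *CBL* and from -0.027 to 0.0106 for *PIK3C2A*. Tg3 vs WT ranged from -0.0394 to 0.0705 for *CBL*, from -0.0958 to 0.00836 for *PIK3C2A* and from -0.0466 to 0.092 for *DOK1*, and *CBL* was at -0.02735 without replicate 2 of every group. A fit scaled for transcript length was not run. At 207 to 312 reads per library, *DOK1* is the gene whose depth limits it most among the 4.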
